A study of Mus musculus with 6 samples.

Results

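Selplg, Fut7, Glg1, Cd44, Pecam1, Icam1, Icam2 and Vcam1 encode molecules with which blood cells roll on, stop at and cross the vessel wall, and they were taken by gene name from the RNA-seq table of each library. All 8 of 8 names were found among 23284 gene names, and 8 of 8 had at least 1 FPKM on average over the libraries (fragments normalised to transcript length and sequencing depth), the filter that 10865 genes passed in all. The study gave 6 libraries of sorted EGFP-positive cells from the calvaria (the roof of the skull) of CX3CR1-EGFP mice, in which a fluorescent protein reports use of the fractalkine receptor gene. The CTLA4-Ig group (3 libraries) received lipopolysaccharide (LPS), an inflammatory bacterial product, at the calvarial periosteum together with 10 mg/kg CTLA4-Ig, a fusion protein (abatacept) that binds CD80 and CD86. The control IgG group (3 libraries) received the same LPS with whole human IgG. Cells of both groups were sorted on day 5, so all 6 libraries carry the reporter and the LPS, and no library without LPS was analysed here. Strain, age, sex and reporter zygosity are not stated in the labels, nor which animals each library came from, so the p-values measure the spread between these libraries. EGFP in these mice marks monocytes and other myeloid cells rather than 1 cell type, so the values are those of a mixed sorted population. Cx3cr1 itself stood at 16.6 to 26.5 FPKM with CTLA4-Ig and at 12.3 to 32.5 FPKM with control IgG.

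Leukocytes leave the blood in steps. Selectins, lectins on endothelium, platelets and leukocytes, catch sugars on glycoprotein carriers such as PSGL-1 (Selplg), ESL-1 (Glg1) and CD44, and the carriers bind only after enzymes such as the fucosyltransferase FUT7 have built the sialyl Lewis x sugar on them. Rolling is followed by firm arrest, when leukocyte integrins bind ICAM-1, ICAM-2 and VCAM-1, and by passage through the junctions, where PECAM-1 (CD31) binds PECAM-1 on the neighbouring cell. The immunoglobulin family members are best known on endothelium, but monocytes, macrophages and platelets can carry them too. The selectins themselves are not among the 8 genes.

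The spacing of low FPKM values, which shows what 1 fragment is worth in a gene of known length, put the depth at 9270000, 8570000 and 10610000 fragments in CTLA4-Ig libraries 1, 2 and 3 and at 8870000, 9620000 and 9250000 in control libraries 1, 2 and 3. At that depth every member value rested on at least 92.8 fragments per kilobase of transcript, so none lay near the limit of detection. Control library 1 stood apart: it was the farthest of the 6 from the median in 31.6% of the genes tested, against 9.88 to 19.5% for each other library. It was also the lowest library for 5 of the 8 genes, a share that was not counted over all genes. Differences of single genes that it turned or moved by more than 1.5 times are given with and without it. Calls below are those of limma at p under 0.05 after Benjamini-Hochberg adjustment over all 10865 genes; it made 0 calls (0%), and 659 genes (6.07%) had an unadjusted p under 0.05.

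None of the 8 genes passed the test for a difference between CTLA4-Ig and control IgG. The transcripts of the selectin ligand machinery and of the adhesion molecules were present in all 6 libraries, led by Selplg at a mean of 205 FPKM and Cd44 at 102 FPKM. Limma called 0 of 8 at an adjusted p under 0.05, against 0% of all genes, and 0 of 8 had an unadjusted p under 0.05, against 6.07% of all genes. Glg1 was the 1 member whose libraries did not overlap between the groups, being lower with CTLA4-Ig, where 5.69% of all genes were apart and lower, 6.50% apart and higher and 12.2% apart in either direction. The differences ran from -0.14 (Glg1) to 0.25 (Fut7) on the scale of log2(FPKM + 1), with a median of 0.09, and 5 of 8 were positive. Over all genes tested the median was -0.01 and 47.7% were positive. Without control library 1 the median of the 8 was -0.04, and 3 of 8 were positive.

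**Figure D1:**
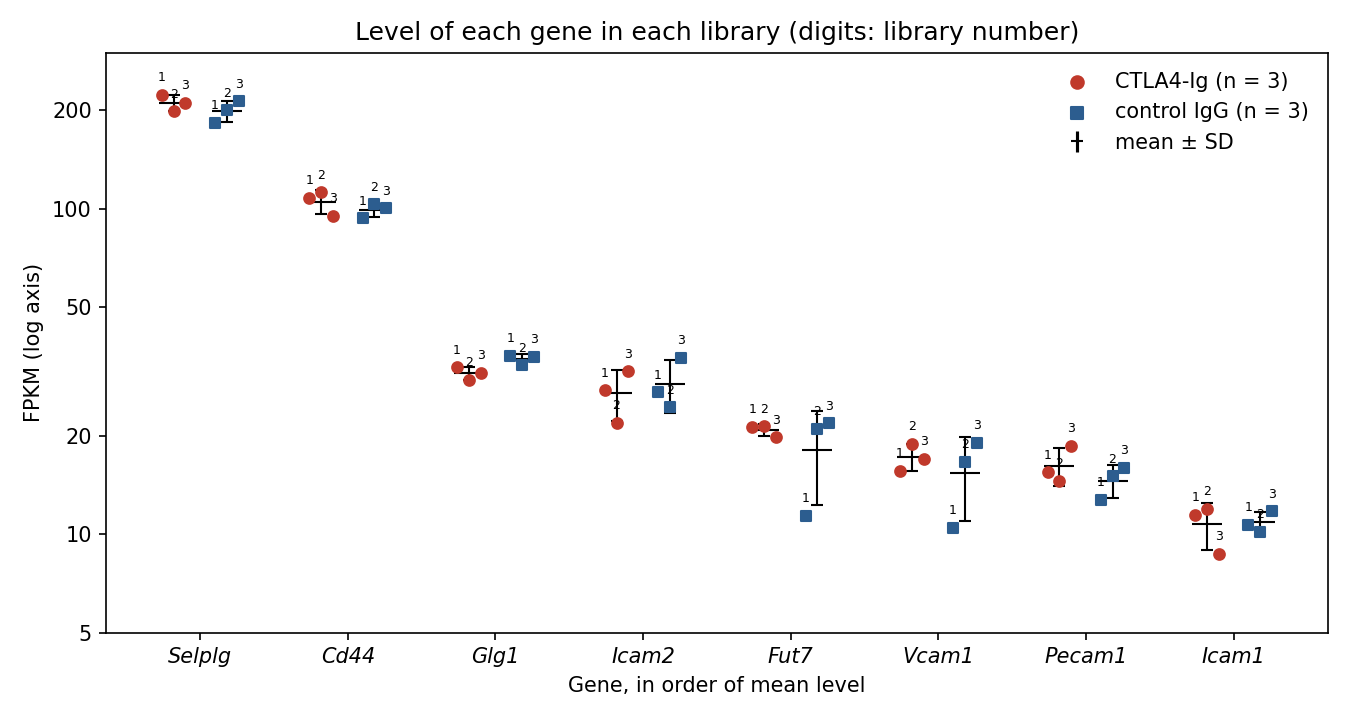
FPKM of the 8 genes on a log axis, with CTLA4-Ig libraries (circles) left of control IgG libraries (squares), the library number beside each point, and bars for mean ± SD (n = 3 each). Selplg and Cd44 lie above the other genes in every library, and control library 1 is the lowest point of Fut7 (11.4 FPKM) and of Vcam1 (10.5 FPKM).

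Among the carriers of selectin ligands, Selplg had the highest level of the 8 genes and lay above 96.1% of the genes tested. It encodes PSGL-1, a mucin-like protein that all 3 selectins can bind (chromosome 5, 113817798 to 113832528, minus strand, GRCm38). Selplg stood at 223, 199 and 211 FPKM in CTLA4-Ig libraries 1, 2 and 3 and at 183, 200.4 and 213 FPKM in control libraries 1, 2 and 3. The groups overlapped, with the lowest value in control library 1 and the highest in CTLA4-Ig library 1. The difference was 0.09 ± 0.08 on the log2 scale (SE; 95% interval -0.09 to 0.27; limma, Benjamini-Hochberg adjusted p = 0.904), and 0.03 ± 0.07 without control library 1.

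Cd44 encodes a cell surface receptor for the matrix sugar hyaluronan that can also carry selectin ligands (chromosome 2, 102811141 to 102901669, minus strand). Cd44 stood at 108, 112 and 95.1 FPKM with CTLA4-Ig and at 93.5, 103 and 100.3 FPKM with control IgG. The groups overlapped, since CTLA4-Ig library 3 lay below control libraries 2 and 3. The difference was 0.08 ± 0.08 on the log2 scale (SE; 95% interval -0.10 to 0.27; limma adjusted p = 0.909), and 0.04 ± 0.08 without control library 1, the lowest of the 6. In every library Selplg was above Cd44, by a factor of 1.77 to 2.22, and Cd44 above Glg1, by 2.64 to 3.77.

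Glg1 encodes a Golgi glycoprotein that, as ESL-1, serves mouse myeloid cells as a ligand of E-selectin (chromosome 8, 111153284 to 111259210, minus strand). Glg1 stood at 32.6, 29.8 and 31.3 FPKM with CTLA4-Ig and at 35.4, 33.1 and 35.1 FPKM with control IgG. Each CTLA4-Ig library lay below each control library; the nearest pair was CTLA4-Ig library 1 and control library 2. The means were 31.2 ± 1.38 FPKM with CTLA4-Ig and 34.6 ± 1.26 FPKM with control IgG (SD, n = 3 each), a log2 difference of -0.14 ± 0.06 (SE; 95% interval -0.28 to 0.00; limma unadjusted p = 0.0507, Benjamini-Hochberg adjusted p = 0.817). The two-sided exact permutation test gave p = 0.1, the smallest that 3 against 3 libraries can give. Without control library 1 the difference was -0.12 ± 0.07.

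The stretch before the annotated start of Glg1 is shown because it is the member whose libraries separated, and that of Icam1 because ICAM-1 is a well known target of NF-kB, a factor that LPS activates. Both are the 250 bases before the RefSeq start on the gene's own strand in GRCm38.p6, Glg1 at chr8:111259211-111259460 (minus) and Icam1 at chr9:21015690-21015939 (plus). Capitals mark matches on either strand. The NF-kB type motif searched was the exact sequence GGAAATTCC, and other forms of such sites were not searched. The TATA type motif was TATAAA, searched in the same way. The GC box, the core of sites for the factor Sp1, was GGGCGG.
Glg1: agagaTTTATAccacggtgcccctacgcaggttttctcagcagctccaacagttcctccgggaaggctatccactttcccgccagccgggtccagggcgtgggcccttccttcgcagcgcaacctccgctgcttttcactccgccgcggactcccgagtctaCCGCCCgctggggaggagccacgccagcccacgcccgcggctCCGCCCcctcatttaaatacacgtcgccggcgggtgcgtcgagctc
Icam1: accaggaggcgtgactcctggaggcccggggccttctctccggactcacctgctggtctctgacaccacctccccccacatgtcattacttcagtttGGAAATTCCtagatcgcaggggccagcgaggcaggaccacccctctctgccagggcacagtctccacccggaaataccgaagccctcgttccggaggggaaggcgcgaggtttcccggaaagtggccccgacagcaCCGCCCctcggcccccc
The Icam1 stretch holds 1 NF-kB type match, which begins 153 bases before the start, and 1 GC box. That of Glg1 holds no NF-kB type match, 2 GC boxes and 1 TATA type match that begins 245 bases before the start. Among 32536 windows of this length, 0.289% hold the NF-kB type motif, 12.3% the TATA type motif and 33.0% a GC box. G and C make up 66.0% of the Glg1 stretch and 65.2% of that of Icam1, where the median window has 52.4%. A match describes the letters of these windows and not the binding of a factor.

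Fut7, the enzyme that adds the last fucose of sialyl Lewis x in leukocytes (chromosome 2, 25422351 to 25426374, plus strand), had the widest spread of the 8 genes, with a coefficient of variation of 20.8% over the 6 libraries. Fut7 stood at 21.4, 21.5 and 19.9 FPKM with CTLA4-Ig and at 11.4, 21.1 and 21.9 FPKM with control IgG. Control library 1 alone was low, and the other control libraries lay among or above those with CTLA4-Ig. The log2 difference was 0.25 ± 0.23 (SE; 95% interval -0.29 to 0.79; limma adjusted p = 0.906), and -0.04 ± 0.07 without control library 1, so its direction turned with that library. Fut4, which encodes the other main leukocyte fucosyltransferase of this pathway, was not low in control library 1: it stood at 7.33, 6.68 and 6.65 FPKM with CTLA4-Ig and at 7.17, 7.74 and 8.19 FPKM with control IgG. The quotient of Fut7 and Fut4 was 2.92, 3.23 and 3.00 with CTLA4-Ig, against 1.59, 2.72 and 2.67 with control IgG, without overlap. That of Glg1 and Selplg was 0.146, 0.150 and 0.148 with CTLA4-Ig, against 0.193, 0.165 and 0.165 with control IgG, again without overlap. These quotients were chosen after the values were seen and carry no test.

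**Figure D2:**
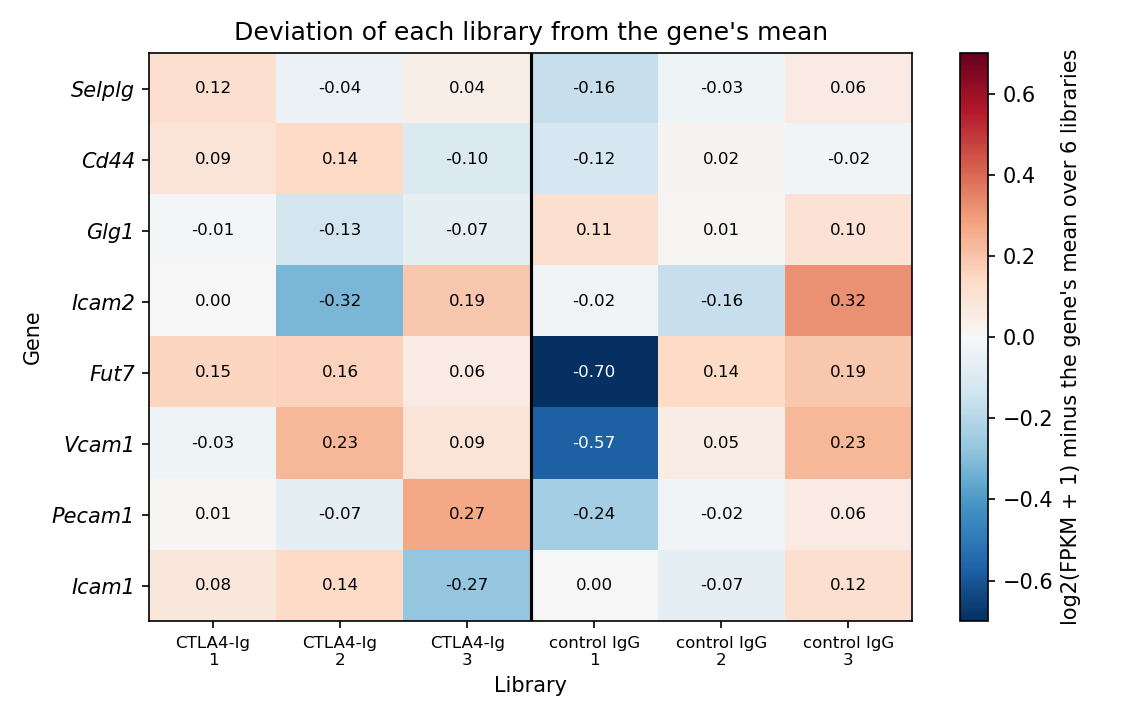
Deviation of each library (columns; CTLA4-Ig left, control IgG right) from each gene's mean over the 6 libraries (rows), in units of log2(FPKM + 1), with red for higher and blue for lower. Control library 1 holds the deepest cells, -0.70 for Fut7 and -0.57 for Vcam1.

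Vcam1 encodes the ligand of integrin alpha4 beta1 and also marks some macrophages and stromal cells of bone marrow (chromosome 3, 116110020 to 116129688, minus strand). Vcam1 stood at 15.7, 19.0 and 17.1 FPKM with CTLA4-Ig and at 10.5, 16.7 and 19.1 FPKM with control IgG. As with Fut7, control library 1 was the lowest and control library 3 the highest, so the groups overlapped. The log2 difference was 0.19 ± 0.20 (SE; 95% interval -0.29 to 0.67; limma adjusted p = 0.920), and -0.05 ± 0.10 without control library 1. Fut7 and Vcam1 followed each other over the 6 libraries with a Pearson's r of 0.95, and with 0.38 over the 5 libraries other than control library 1. Of the other cell markers, the summed level of 5 erythroid genes was 28.3, 33.3 and 37.2 FPKM with CTLA4-Ig and 4.57, 48.1 and 38.3 FPKM with control IgG. Most of this sum was Hba-a1, and Hbb-b1 was near 0 in every library. The summed level of 10 stromal and osteoblast genes was 24.2, 26.1 and 23.6 FPKM with CTLA4-Ig and 14.3, 25.1 and 32.6 FPKM with control IgG. Both sums were lowest in control library 1, the library low in Fut7 and Vcam1. The endothelial, T cell and B cell sums were also lowest there, at 6.51, 7.44 and 13.3 FPKM, though the B cell sum was nearly as low in CTLA4-Ig library 2, at 13.6 FPKM. The sum of 11 macrophage genes was not lowest there, at 317 FPKM in control library 1. It was 272 to 368 FPKM with CTLA4-Ig and 260.5 and 285 FPKM in the other control libraries. The promyelocyte, platelet, dendritic cell and osteoclast sums were highest in control library 1. The part of these markers in the values of Fut7 and Vcam1 was not tested. In a mixed population fewer cells of a type and less RNA per cell cannot be told apart.

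Pecam1 encodes CD31, the junction molecule whose tail carries inhibitory ITIM motifs (chromosome 11, 106654213 to 106715281, minus strand). Pecam1 stood at 15.5, 14.6 and 18.7 FPKM with CTLA4-Ig and at 12.8, 15.1 and 16.0 FPKM with control IgG. The highest value was in CTLA4-Ig library 3 and the lowest in control library 1, and the groups overlapped. The log2 difference was 0.14 ± 0.12 (SE; 95% interval -0.14 to 0.42; limma adjusted p = 0.904), and 0.05 ± 0.11 without control library 1. Endothelial markers were low in these cells: 9 of 11 stayed under 1 FPKM in all 6 libraries, among them Kdr, Tek, Tie1, Emcn and Robo4. The summed level of the 11 was 10.7 to 12.5 FPKM with CTLA4-Ig and 6.51 to 10.5 FPKM with control IgG, so the groups did not overlap in the sum. In every library the sum was below the level of Pecam1 alone, which does not measure the share of endothelial cells. Cdh5, the cadherin of endothelial junctions, stood at 3.68, 2.93 and 3.32 FPKM with CTLA4-Ig and at 2.31, 3.61 and 3.09 FPKM with control IgG. Egfl7, a protein secreted by endothelium, stood at 5.57, 6.44 and 7.47 FPKM with CTLA4-Ig and at 3.19, 4.27 and 5.62 FPKM with control IgG, a log2 difference of 0.50 ± 0.18 (limma unadjusted p = 0.0287, adjusted p = 0.751). Cdh5 and Egfl7 made up most of the endothelial sum, and each of these genes overlapped between the groups. The part of the endothelial markers in the values of Pecam1 was not tested. The summed level of 7 platelet markers was 12.7, 14.6 and 18.6 FPKM with CTLA4-Ig and 18.8, 14.9 and 11.2 FPKM with control IgG, so the groups overlapped. Of the 7, limma called 0 and Gp6 was listed at 0 in every library. The highest was Itga2b, the platelet integrin chain, at 7.38 to 8.87 FPKM with CTLA4-Ig and 6.71 to 10.1 FPKM with control IgG. Gp9, a chain of the platelet receptor for von Willebrand factor, had the largest difference of the 3 tested, 0.51 ± 0.25 (limma adjusted p = 0.848).

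Icam1 encodes the inducible ligand of the integrins LFA-1 and Mac-1 (chromosome 9, 21015940 to 21028814, plus strand) and had the lowest mean of the 8 genes. Icam1 stood at 11.5, 12.0 and 8.74 FPKM with CTLA4-Ig and at 10.7, 10.2 and 11.8 FPKM with control IgG. The lowest and the highest value were both in the CTLA4-Ig group, so the groups overlapped. The log2 difference was -0.03 ± 0.12 (SE; 95% interval -0.32 to 0.26; limma adjusted p = 0.986). Icam4, its neighbour on chromosome 9, ranged from 0.716 to 1.62 FPKM with CTLA4-Ig and from 0.433 to 1.38 FPKM with control IgG, and did not pass the filter.

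Icam2 encodes a ligand of LFA-1 that resting cells carry without induction (chromosome 11, 106377656 to 106388139, minus strand). Icam2 stood at 27.7, 22.0 and 31.7 FPKM with CTLA4-Ig and at 27.3, 24.6 and 34.8 FPKM with control IgG. The groups overlapped, with library 3 the highest in each. The log2 difference was -0.09 ± 0.17 (SE; 95% interval -0.48 to 0.30; limma adjusted p = 0.958). Icam2 was above Icam1 in all 6 libraries. The lowest value of Icam2, 22.0 FPKM, exceeded the highest of Icam1, 12.0 FPKM.

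**Figure D3:**
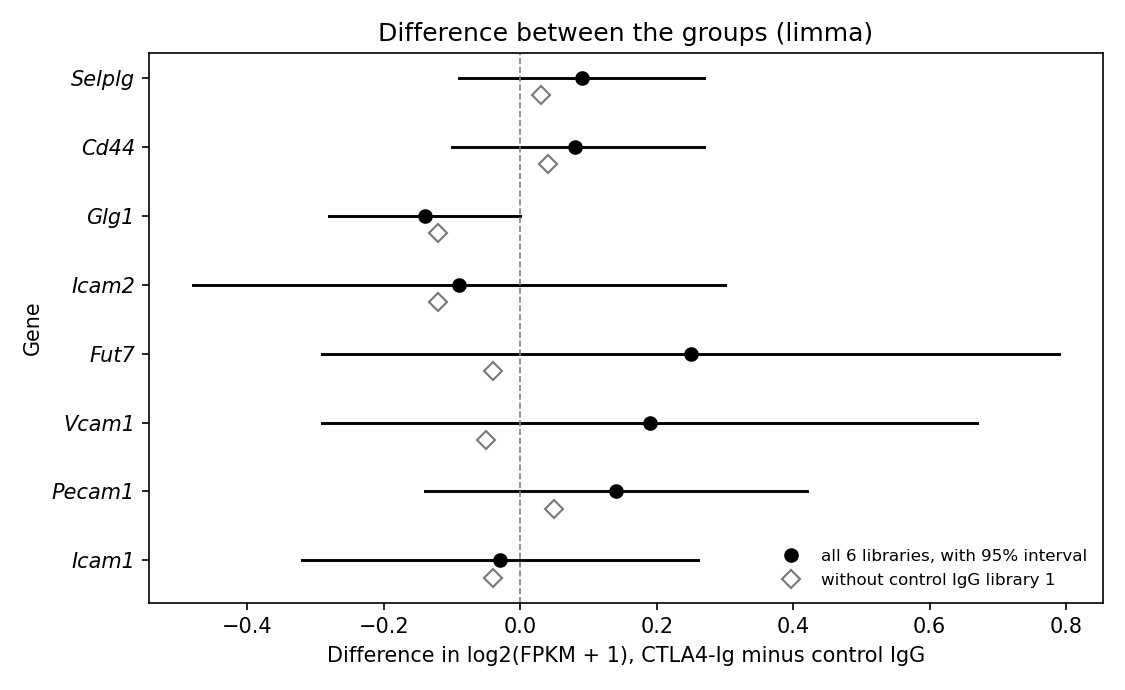
Difference in log2(FPKM + 1) between CTLA4-Ig and control IgG for each gene, with limma's 95% interval (circles and lines, 3 libraries per group) and the value without control library 1 (diamonds). Every interval reaches 0, and the values of Fut7 and Vcam1 move from 0.25 and 0.19 to -0.04 and -0.05 without that library.

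By mean level over the 6 libraries the order was Selplg, Cd44, Glg1, Icam2, Fut7, Vcam1, Pecam1 and Icam1, on the FPKM scale, which allows for transcript length. Selplg, Cd44 and Glg1 did not overlap in range, and neither did Icam2 and Fut7. Glg1 and Icam2 did overlap, and Glg1 was the higher in 5 of 6 libraries. Vcam1 and Pecam1 changed places between libraries, with Vcam1 the higher in 4 of 6. Fut7 and Vcam1 overlapped in range, but Fut7 was the higher in 6 of 6 libraries, by a factor of 1.08 to 1.36. Pecam1 stood above Icam1 in 6 of 6 libraries and the ranges did not overlap, at 12.8 to 18.7 FPKM for Pecam1 and 8.74 to 12.0 FPKM for Icam1.

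The genes most like each member were sought among the 8459 genes that averaged 5 FPKM or more, by Pearson's r of log2(FPKM + 1) over the 6 libraries, which share library and depth. Selplg was followed most closely by Mrps25 (r = 0.997) and Hlcs (0.984), Cd44 by Tmem86b (0.994) and Ap1g1 (0.992), and Glg1 by Wdr11 (0.994) and Dennd4c (0.981). Fut7 was closest to Eif4a2 (0.994) and Sdc3 (0.993), Vcam1 to Arl6ip1 (0.99) and Rfx7 (0.987), and Pecam1 to Lrrc20 (0.993) and Gm7334 (0.984). Icam1 was closest to Mcm3ap (0.986) and Wdfy2 (0.975), and Icam2 to Tubb5 (0.99) and Pex5 (0.973). With 6 points such values are common: 10 genes for Icam1 and 94 for Fut7 had an r over 0.95. The genes closest to Fut7 shared its low value in control library 1, where Sdc3 stood at 4.45 FPKM, against 9.82 to 10.4 FPKM with CTLA4-Ig and 10.6 and 10.7 FPKM in the other control libraries.

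The rest of the pathway was read from lists of 125 further genes, of which 124 names were in the files and 100 passed the filter. Limma called 0 of the 100 in either direction, 8 were higher and 0 lower at an unadjusted p under 0.05, and the median difference was 0.01, against -0.01 over all genes tested. Of all genes, 4.09% were higher and 1.98% lower at that unadjusted p.

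Of the selectins of the vessel wall, Selp (P-selectin, of platelets and endothelium) reached at most 1.48 FPKM with CTLA4-Ig and 2.86 FPKM with control IgG, and Sele (E-selectin, of inflamed endothelium) 0.315 and 0.393 FPKM. Both stayed far below the ligand carriers Selplg, Cd44 and Glg1 in every library.

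Other carriers and the enzymes of the ligand sugar gave no call either. Of 9 other carriers 4 passed the filter, and limma called 0, with 1 higher at an unadjusted p under 0.05. That gene, Cd24a, a small mucin-like carrier of P-selectin ligands with related intronless copies in the genome, stood at 245, 319 and 292 FPKM with CTLA4-Ig and at 207, 231 and 206 FPKM with control IgG, a log2 difference of 0.40 ± 0.11 (SE; limma adjusted p = 0.720). Spn, the leukocyte sialomucin CD43, had a difference of 0.10 and the sialomucin gene Cd34 0.15, but -0.05 and -0.12 without control library 1. Of 23 synthesis genes 20 passed the filter, and 0 were called or had an unadjusted p under 0.05; their median was -0.03, and 13 of 20 were negative. Gcnt1, the branching enzyme that prepares PSGL-1 for P-selectin, had -0.28 ± 0.14 (-0.13 ± 0.10 without control library 1) and stood at 13.2, 12.2 and 13.5 FPKM with CTLA4-Ig and 19.9, 15.7 and 12.9 FPKM with control IgG. St3gal4, the sialyltransferase of leukocyte selectin ligands, had -0.01, B4galt1 -0.01 and the GDP-fucose transporter Slc35c1 -0.03, and 0.04, 0.05 and -0.01 without control library 1. The tyrosine sulfotransferase Tpst2, which modifies PSGL-1, had 0.04 (0.01 without that library), and Fut9 was listed at 0 in all 6 libraries.

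Genes that anchor the ligands, cut them or carry their signal to the integrins also gave no call. Of 7 sheddases and cytoskeletal anchors all passed the filter and 1 was higher at an unadjusted p under 0.05. This was Ezr, the membrane-to-actin linker ezrin, at 65.3, 72.9 and 69.3 FPKM with CTLA4-Ig and 61.2, 64.0 and 59.0 FPKM with control IgG, a log2 difference of 0.17 ± 0.06 (SE; limma adjusted p = 0.759). Its relatives had differences of -0.05 (Msn) and -0.01 (Rdx), and the sheddase genes Adam10 and Adam17 had -0.07 and -0.06. Without control library 1 Rdx had -0.02 and Adam10 -0.04. Of 18 signalling genes all passed the filter, 13 were positive with a median of 0.04, and 0 had an unadjusted p under 0.05. Among these, the kinase genes Syk, Fgr and Lyn had differences of 0.06, 0.09 and -0.11, and 0.03, 0.16 and -0.06 without control library 1. The talin gene Tln1 had 0.03 with and without that library. Fermt3, which encodes the integrin activator kindlin-3, had 0.05, and 0.18 ± 0.06 without it (limma adjusted p = 0.593).

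On the side of arrest, the integrin genes that bind the ICAM and VCAM molecules gave no call. Of 11 integrin genes 9 passed the filter, 0 were called and 3 were higher at an unadjusted p under 0.05: Itgb2, Itgam and Itgb3. Itgb2, the chain shared by LFA-1 and Mac-1, stood at 415, 433 and 409 FPKM with CTLA4-Ig and at 352, 375 and 357 FPKM with control IgG, a log2 difference of 0.21 ± 0.06 (SE; limma adjusted p = 0.720). Of the 9 integrin genes 2, Itgb2 and Itgb3, had libraries that were apart and higher with CTLA4-Ig, where 6.50% of all genes were. The groups overlapped for the ligands Icam1 and Icam2, and no test compared receptors with ligands. Itgal, the alpha chain of LFA-1, had 0.14 ± 0.10 (0.05 ± 0.08 without control library 1), and Itga4, the alpha chain of the VCAM-1 receptor, -0.10 ± 0.11 (-0.20 ± 0.10 without it). Of 12 neutrophil markers measured, limma called 0 (smallest adjusted p = 0.720), 8 were higher at an unadjusted p under 0.05, and all 12 differences were positive, with a median of 0.56. Their summed level was 173111 to 239399.7 FPKM with CTLA4-Ig and 133766 to 152763 FPKM with control IgG, most of it from S100a8 and S100a9. Of 9 monocyte markers limma called 0, and 7 differences were negative and 2 positive, with a median of -0.03. The monocyte sum, mostly Ly6c2, was 2790.5 to 2940.4 FPKM with CTLA4-Ig and 2965 to 2996 FPKM with control IgG. The groups did not overlap in this sum, but did in each of the 9 markers. The part of the neutrophil and monocyte markers in the values of Itgb2, Itgam, Cd24a and the members was not tested.

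Of 20 other ICAM, JAM and junction genes 13 passed the filter, 0 were called and 1 was higher at an unadjusted p under 0.05. This was Cd177, a neutrophil surface protein that binds PECAM-1, at 424, 524 and 431 FPKM with CTLA4-Ig and 361, 344 and 289.7 FPKM with control IgG, a log2 difference of 0.47 ± 0.12 (SE; limma adjusted p = 0.720). F11r, which encodes JAM-A, stood at 2.42, 6.59 and 4.83 FPKM with CTLA4-Ig and at 20.4, 2.63 and 3.90 FPKM with control IgG. Its difference was -0.44 ± 0.66 and turned to 0.34 ± 0.33 without control library 1, which alone was high. Amica1, which encodes the junctional protein JAML, was likewise high in control library 1 alone, at 27.2 FPKM, against 7.80 to 14.1 FPKM with CTLA4-Ig and 10.0 and 10.1 FPKM in the other control libraries. So control library 1 was high in F11r and Amica1. Cdh5, Alcam, L1cam and Cd99l2 of the same list were lowest there, as were Fut7 and Vcam1. The phosphatase genes Ptpn6 and Ptpn11, whose products bind the ITIMs of PECAM-1, had differences of 0.00 and 0.02 (-0.02 and -0.01 without that library), and of 4 such partners 0 were called.

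Of 13 hyaluronan and CD44 partner genes 7 passed the filter, 0 were called and 2 were higher at an unadjusted p under 0.05, Lyve1 and Tmem2 (Cemip2). Lyve1, a hyaluronan receptor of lymphatic vessels and some macrophages, stood at 1.29, 2.08 and 1.67 FPKM with CTLA4-Ig and at 0.963, 1.01 and 1.09 FPKM with control IgG, a log2 difference of 0.40 ± 0.15 (SE; limma adjusted p = 0.751). The CD44 ligand gene Spp1 had -0.18 ± 0.11. Of 17 NF-kB response genes 16 passed the filter, and 0 were called or had an unadjusted p under 0.05. Their median was 0.03 (0.05 without control library 1). Nfkbia, the feedback inhibitor of NF-kB, stood at 86.3, 81.1 and 92.5 FPKM with CTLA4-Ig and at 154, 80.4 and 86.5 FPKM with control IgG. Its difference was -0.24 ± 0.23 and turned to 0.05 ± 0.07 without control library 1. Other genes of the list went both ways in that library: Bcl3 and Birc3 were highest there, and Nfkb1, Nfkbie, Rel, Traf1 and Irf1 lowest. Icam1, whose stretch before the start holds the NF-kB type motif, was at 10.7 FPKM in control library 1, within the range of the other libraries. A link between these genes and Icam1 was not tested.

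**Figure D4:**
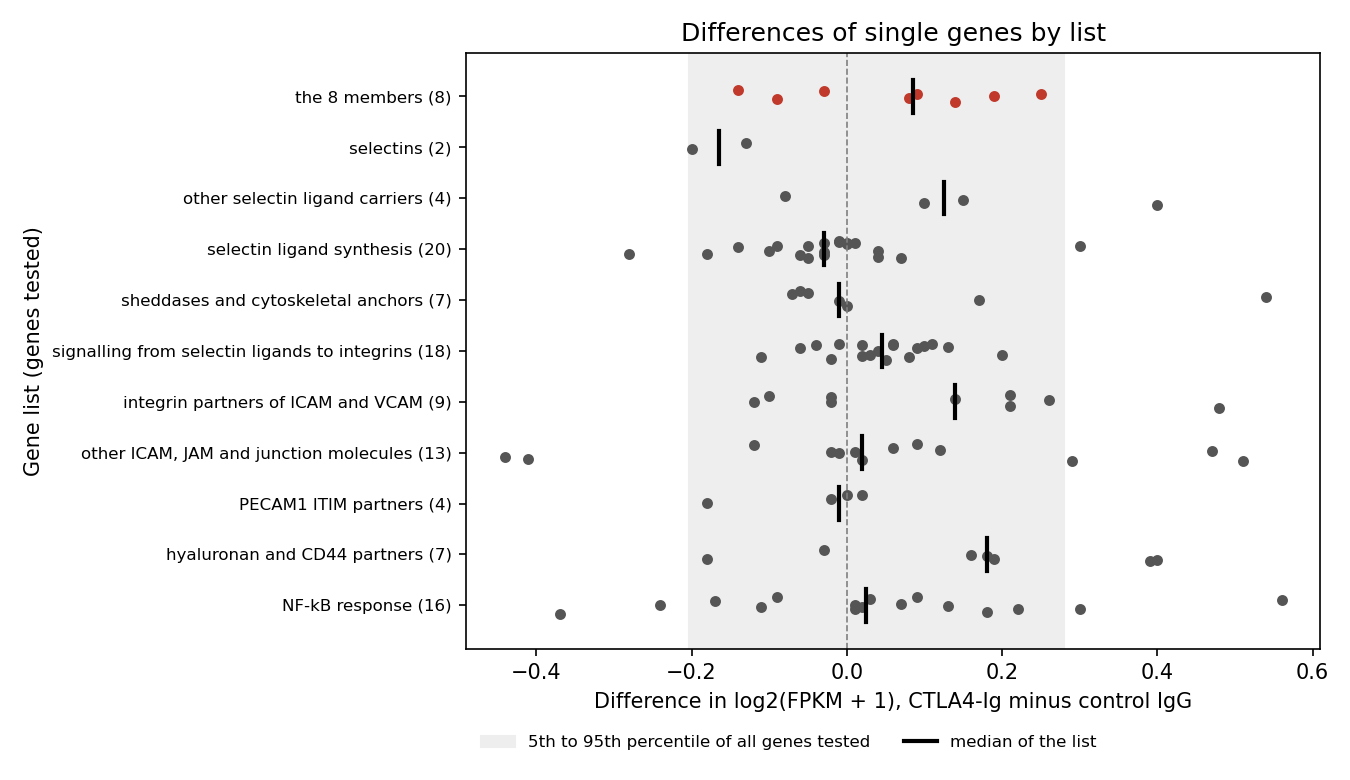
Difference in log2(FPKM + 1), CTLA4-Ig minus control IgG, of every tested gene (points) by list, with the number tested in parentheses, black bars for medians and a grey band for the 5th to 95th percentile of all genes (-0.20 to 0.28). All 8 members (top row) lie inside the band.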

How the data were processed

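The labels' protocols name a miRNeasy kit for total RNA and a stranded TruSeq kit for mRNA libraries. The submitters' processing notes name Cuffnorm 2.2.1, TopHat2 2.0.13, Bowtie2 2.2.3 and SAMtools 0.1.19, and the build mm10 (GRCm38); settings, annotation and use of strand in counting are not stated there. The deposited values are FPKM, scaled between libraries by the authors, so no count test was run. In R 4.3.3, limma 3.58.1 (eBayes with trend) was fitted to log2(FPKM + 1) for genes averaging 1 FPKM or more. P-values were Benjamini-Hochberg adjusted over all 10865 genes, with a threshold of 0.05. The pseudocount of 1 understates differences of low genes. The groups were taken from the titles.

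Depth was estimated from 1527 genes with 1 GENCODE transcript of at least 2000 bases, as the commonest value that 1 fragment would give. Coordinates and promoter sequences are from RefSeq (GRCm38.p6); promoter windows were matched for 4 of the 8 members, Cd44, Glg1, Fut7 and Icam1. No member overlaps a gene of the same strand in GENCODE. The members, lists and tests were chosen with earlier results of these data known. Named genes were the members, list genes picked by role and the 2 genes most like each member; Itgb3, Tmem2 and the marker genes were named after their values were seen. Of the list genes, Cemip and Ly6g were not analysed here. Some list genes are counted but not reported singly here. The test was checked on simulated data with changes of 0.5 and 1 on the log2 scale. At 0.5 it recovered 55% of the changed genes. Smaller changes, of the size of the member differences, were not simulated. Python 3.11.15, pandas 2.3.3, numpy 2.4.6 and matplotlib 3.10.9 were used for depth, sequences and figures. The alternatives were other pseudocounts (0.1 and 0.5), filters (none, or 5 FPKM), scalings and variance models, a replicate block, array weights and leaving out single libraries.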

Additional observations from a re-analysis of the deposited data

How the results depend on the processing

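Under 10 alternatives that kept all libraries (other pseudocounts, filters, scalings and variance models, array weights and a replicate block), limma called 0 of the 8 members and 0 further pathway genes, and 79 of 80 member differences kept their sign and stayed uncalled. The exception was Icam1, at 0.003 on the log2 scale with array weights, against -0.03 in all 6 libraries weighted equally. Leaving out single libraries gave 0 called members and 0 to 6 called genes in all, the 6 without CTLA4-Ig library 3, and 42 of 48 member differences kept their sign. The range was -0.036 (without control library 1) to 0.408 (without control library 3) for Fut7, and -0.049 to 0.353 without the same libraries for Vcam1. For Icam1 it was -0.107 (without CTLA4-Ig library 2) to 0.101 (without CTLA4-Ig library 3), and for Icam2 -0.207 (without CTLA4-Ig library 3) to 0.047 (without CTLA4-Ig library 2 or control library 3). Selplg kept a difference of 0.029 to 0.137, Cd44 0.036 to 0.155, Glg1 -0.172 to -0.11 and Pecam1 0.04 to 0.21. Limma's unadjusted p of Glg1 was 0.0374 with no filter, 0.0473 with the 5 FPKM filter and 0.0414 with quantile normalization. Without CTLA4-Ig library 1 it was 0.0461. In each of these settings 1 of 8 members thus had an unadjusted p under 0.05, and in every other setting 0 of 8. The cause of these shifts was not tested.

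The libraries of the groups share only a number: deviations from the group means correlated by -0.154, -0.094 and -0.023 between libraries of the same number. With the replicate block limma again called 0 genes, and 619 had an unadjusted p under 0.05, against 659 without it. With 3 libraries per group, the missing calls do not show that the groups are alike; the 95% intervals beside each member give the sizes that remain possible.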
